A study of Mus musculus with 16 samples.

Results

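Endothelial cells of adult mouse lung in which beta-catenin had been activated were compared with cells of control lungs by messenger RNA sequencing. The comparison used 8 of the 16 libraries of the series, 4 lung GOF and 4 lung control, chosen by their labels; the other 8 are liver libraries of the same genotypes. GOF mice were Rosa-Bcat-GOF/+; VE-Cadherin-CreERT2, so that Cre, under the endothelial VE-cadherin promoter, could switch on an activated beta-catenin from the Rosa locus. Control mice were Rosa-Bcat-GOF/+ and thus carried the same activatable allele without Cre. The Cre transgene and the activated beta-catenin differ together between the groups and cannot be told apart. The age in weeks, the sex and the induction schedule are not given in the labels. Cells were freed by trituration and sorted with a fluorescent antibody to CD31, a surface protein of endothelial cells that platelets and some leukocytes also carry. Each GOF library (letters B, D, E and F) was set against the control of its letter.

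Beta-catenin is the effector of canonical Wnt signalling. When Wnt ligands bind Frizzled and LRP receptors it escapes degradation, enters the nucleus and, bound to TCF and LEF proteins, activates targets such as Axin2, which in turn restrains the pathway. In brain endothelium this pathway maintains barrier transporters and tight junctions, whereas lung endothelium, made up mostly of general capillary cells and aerocytes with smaller numbers of arterial, venous and lymphatic cells, has no such barrier.

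The lung libraries held between 25901187 and 34529850 counted reads, and 15972 to 16806 genes were detected with 1 read or more. Endothelial identity was clear in all 8. Cdh5 (VE-cadherin) stood at 2220, 3264, 2241 and 3171 CPM (read counts scaled to the library size adjusted by TMM) in GOF libraries B, D, E and F, against 2202, 3118, 2263 and 3110 CPM in controls B, D, E and F. The same order of letters is used for every set of 4 values that follows. Markers of other cells were also present: the summed level of 11 alveolar type 2 markers lay between 2061 and 12810 CPM in GOF and between 1538 and 14330 CPM in controls. All 11 of these markers had a positive log2 fold change (median 0.25). With GOF higher, 6 had an unadjusted p under 0.05, where 2.91% of all genes did. Without pair B 0 did, and without pair E or F 2 did (1.89%, 3.66% and 2.77% of all genes). The part of these markers in the results that follow was not tested. Ctnnb1, the gene for beta-catenin, stood at 600, 598, 734 and 681 CPM in GOF, against 639, 700, 700 and 606 CPM in controls, with overlapping groups and a paired log2 fold change of -0.02 ± 0.101 (SE). The labels do not say whether its reads include the activated transgene, and it therefore does not check them.

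Few genes changed past the threshold. In the paired edgeR quasi-likelihood test, 3 of 15641 genes had a Benjamini-Hochberg adjusted p under 0.05, which is 0.0192% of those tested. Serpinb1a rose (0.00639% of genes were called higher), and Amigo2 and Cytl1 fell (0.0128% were called lower). Each changed by about 1 or more on the log2 scale, in 4 of 4 pairs. The median log2 fold change of all genes was 0.000.

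Serpinb1a encodes an intracellular inhibitor of neutrophil serine proteases. It stood at 234, 146, 187 and 84.8 CPM in GOF, against 75.2, 55.8, 98.2 and 44.5 CPM in controls, a paired log2 fold change of 1.22 ± 0.144 (SE; adjusted p = 0.0113). Every GOF library was above the control of its letter, although the lowest GOF library, F, lay below control E. Amigo2 encodes a transmembrane protein with leucine-rich repeats that mediates cell adhesion. Its level was 97.4, 76.0, 153 and 92.1 CPM in GOF, against 229, 151, 266 and 231 CPM in controls, and it fell by 1.09 ± 0.122 on the log2 scale (adjusted p = 0.0113). Only GOF E reached the range of the controls, just above control D. Cytl1 encodes a small secreted cytokine-like protein. With 135, 163, 235 and 131 CPM in GOF, against 333, 281, 501 and 234 CPM in controls, it had a log2 fold change of -1.004 ± 0.118 (adjusted p = 0.0113). The highest GOF library, E, and the lowest control, F, met at nearly the same level. All 3 calls were lost without pair D (adjusted p = 0.142 for Serpinb1a and 0.116 for the others). That of Amigo2 was also lost without pair F (0.064) and that of Cytl1 without pair E (0.0535).

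The number of calls depended on the test. With the pairing left out, 0 genes (0%) passed in edgeR, although 341 (2.18%) lay under 0.05 before adjustment. DESeq2 called 117 genes in pairs (0.748%; 0.288% higher and 0.46% lower) and 11 without pairing (0.0703%), and limma voom called 57 in pairs (0.364%). Serpinb1a, Amigo2 and Cytl1 were among the genes called by the paired DESeq2 and voom fits. In the authors' deposited table for lung, 1 gene of 18373 with a p-value had an adjusted p under 0.05: Maged2, with a log2 fold change of 0.85 and an adjusted p of 0.008206.

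Promoter sequences of both fallen genes are shown beside that of Axin2, the standard Wnt target; of 5 genes looked up, 4 matched. They are RefSeq windows of the build GRCm38.p6, from 250 bases before to 50 after the start, and were searched on both strands for the TCF/LEF core motifs CTTTGAT and CTTTGAA and the shorter CTTTG, which lies within both. Axin2 is at chr11:108920099-108920398 (plus strand), Amigo2 at chr15:97247238-97247537 (minus strand) and Cytl1 at chr5:37735269-37735568 (plus strand). Capitals mark the shorter motif, read on either strand.
Axin2: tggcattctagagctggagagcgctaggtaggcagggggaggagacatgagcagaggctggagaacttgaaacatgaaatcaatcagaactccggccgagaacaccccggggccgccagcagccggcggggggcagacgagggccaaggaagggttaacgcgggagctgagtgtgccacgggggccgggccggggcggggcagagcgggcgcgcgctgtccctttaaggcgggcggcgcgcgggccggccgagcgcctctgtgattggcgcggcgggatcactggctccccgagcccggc
Amigo2: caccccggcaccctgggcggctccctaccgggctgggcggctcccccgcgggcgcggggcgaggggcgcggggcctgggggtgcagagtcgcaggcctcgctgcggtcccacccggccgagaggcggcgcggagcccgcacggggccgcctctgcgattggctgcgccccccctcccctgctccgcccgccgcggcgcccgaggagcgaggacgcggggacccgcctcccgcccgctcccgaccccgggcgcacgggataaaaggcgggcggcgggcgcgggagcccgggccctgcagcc
Cytl1: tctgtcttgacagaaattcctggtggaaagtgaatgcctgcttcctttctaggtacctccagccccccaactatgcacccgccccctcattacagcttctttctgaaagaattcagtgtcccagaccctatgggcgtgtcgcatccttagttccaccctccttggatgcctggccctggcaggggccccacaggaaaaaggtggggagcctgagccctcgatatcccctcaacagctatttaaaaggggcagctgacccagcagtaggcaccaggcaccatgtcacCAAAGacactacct
Neither longer motif was found in these windows or in the pair of windows listed for Tcf7, and the shorter one occurred 1 time, on the opposite strand near the end of the Cytl1 window. Among all 32851 promoter windows, 3.73% held CTTTGAT, 5.14% held CTTTGAA and 53.9% held CTTTG. Serpinb1a has no entry in the table used.

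**Figure D1:**
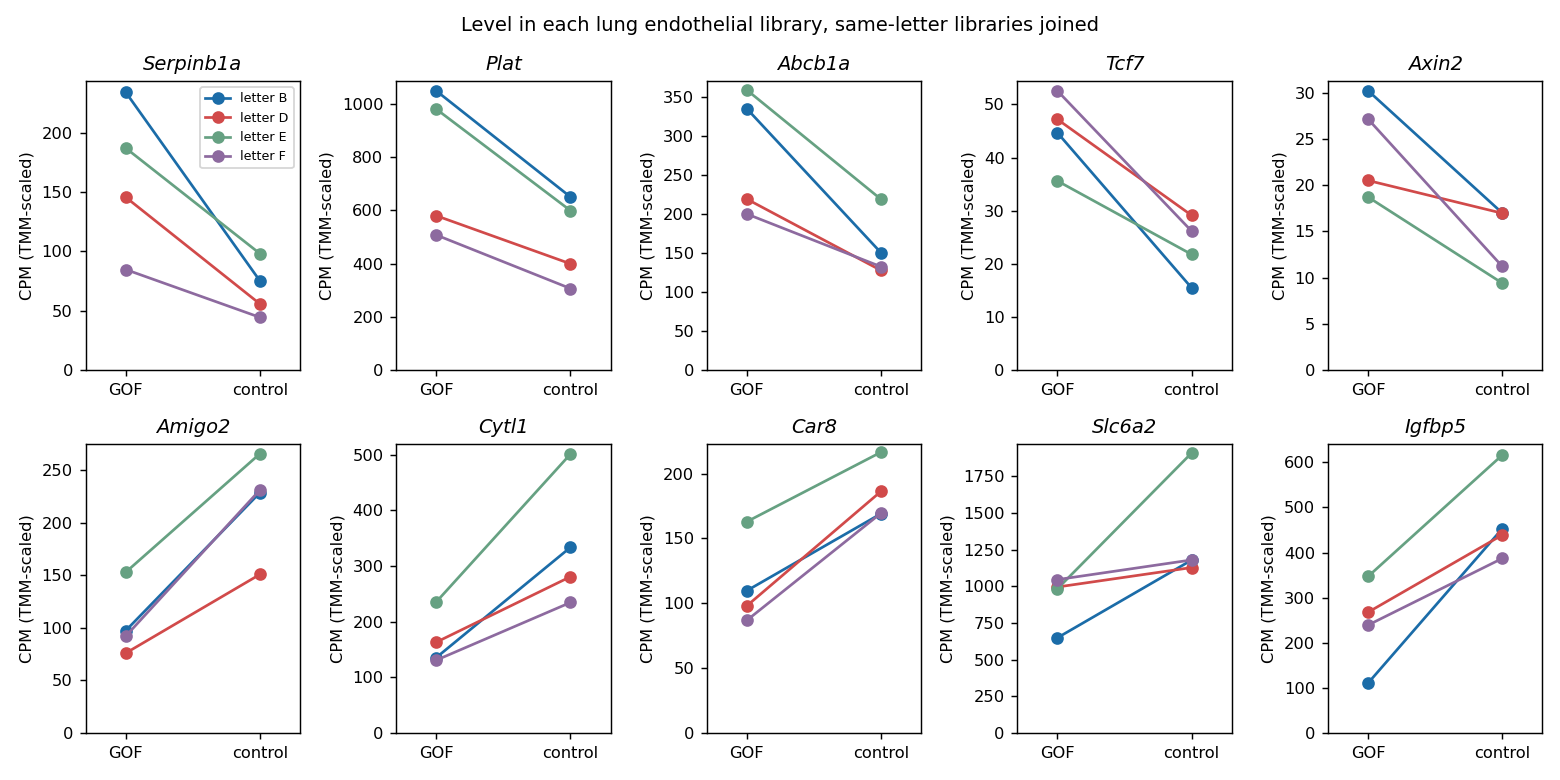
Level (CPM, TMM-scaled, axes from 0) of 10 genes in the 4 GOF libraries (left of each panel) and the 4 control libraries (right), with libraries of the same letter joined by a line. Every line falls to the right in the upper row, where GOF is higher, and climbs in the lower row, where GOF is lower, although for Serpinb1a, Plat, Abcb1a, Amigo2 and Cytl1 the ranges of the groups touch or overlap.

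Beyond the called genes, those with the smallest p and GOF higher, among genes higher in 4 of 4 pairs and averaging 50 reads or more, included Plat, Abcb1a, Col6a2 and Maged2. Plat encodes tissue plasminogen activator, which endothelium releases to dissolve fibrin. It stood at 1048, 580, 980 and 507 CPM in GOF, against 650, 399, 599 and 306 CPM in controls (log2 fold change 0.67 ± 0.0937, SE; adjusted p = 0.0508). Abcb1a, the efflux pump P-glycoprotein, had 335, 219, 359 and 200 CPM in GOF, against 150, 128, 219 and 133 CPM in controls (0.81 ± 0.119; adjusted p = 0.0611). In both genes each GOF library exceeded the control of its letter, while letters B and E ran above D and F in GOF and in controls alike. Maged2, a member of the MAGE family, was at 147, 112, 115 and 90.6 CPM in GOF, against 39.7, 43.5, 69.1 and 53.9 CPM in controls (1.18 ± 0.186; adjusted p = 0.0841), and its groups did not overlap. None of these passed in the paired edgeR test, and Plat, Abcb1a and Maged2 each passed in 6 of 15 alternatives.

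Fn1, Col6a2 and Tnc, which encode matrix proteins, were also among these genes. Fn1 (fibronectin) stood at 1275, 425, 498 and 370 CPM in GOF, against 291, 256, 137 and 250 CPM in controls (log2 fold change 1.32 ± 0.228; adjusted p = 0.149). GOF B was far above the rest, and every GOF library exceeded every control. Col6a2, a collagen VI chain, had a log2 fold change of 0.88 ± 0.132, and Tnc, the matrix protein tenascin C, one of 1.04 ± 0.201. Tnc was at 139 CPM in GOF B and at 12.3 to 18.8 CPM in the other GOF libraries, against 41.0 CPM in control B and 7.50 to 10.4 CPM in the other controls. Fibroblasts also make these proteins, and the sum of 15 fibroblast markers was 5287, 2331, 2133 and 1906 CPM in GOF, against 2781, 2450, 1021 and 1950 CPM in controls, higher in GOF in 2 of 4 pairs. Of those markers 5 had an unadjusted p under 0.05 with GOF higher and 1 with GOF lower (2.91% and 3.19% of all genes). Without pair F 9 had GOF higher (2.77% of all genes). The part of fibroblast RNA in the matrix differences was not tested.

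The other leaders with GOF higher were Net1 (0.64 ± 0.117), Igfbp4, a secreted binder of insulin-like growth factors (0.52 ± 0.104), Sh3bp1, a GTPase-activating protein for Rac (1.19 ± 0.238), Tcf7 and Top2a, each higher in 4 of 4 pairs. Their adjusted p lay between 0.163 and 0.202. Sh3bp1 was at 17.8, 18.2, 15.2 and 18.7 CPM in GOF, against 6.67, 10.98, 5.72 and 8.10 CPM in controls, with no overlap.

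With GOF lower, the leaders after Amigo2 and Cytl1 included several genes of vessel cells. Car8, a member of the carbonic anhydrase family without catalytic activity, stood at 110, 98.0, 163 and 86.9 CPM in GOF, against 169, 186, 217 and 170 CPM in controls (log2 fold change -0.73 ± 0.126; adjusted p = 0.149). Igfbp5, another binder of insulin-like growth factors, was at 110, 268, 347 and 239 CPM in GOF, against 453, 439, 616 and 387 CPM in controls (-1.06 ± 0.193; adjusted p = 0.163). In neither gene did the groups overlap. Fabp4, the fatty acid binding protein of capillary endothelium and adipocytes, was at 22.6, 8.62, 46.1 and 7.82 CPM in GOF, against 39.6, 32.3, 76.9 and 34.1 CPM in controls (-1.38 ± 0.242; adjusted p = 0.156), and only GOF E lay within the control range. Vwf, the platelet-binding protein stored in endothelial granules, had 5733, 6925, 9600 and 5822 CPM in GOF, against 8959, 7997, 12530 and 9224 CPM in controls (-0.48 ± 0.0872; adjusted p = 0.163). Its pairs all lay the same way while the groups overlapped through letter E.

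Also lower in GOF in 4 of 4 pairs were the matrix protein gene Fbln2 (-0.57 ± 0.102), the phosphodiesterase gene Pde2a (-0.90 ± 0.171), the carboxypeptidase gene Cpe (-0.55 ± 0.106), the choline phosphodiesterase gene Enpp6 (-1.35 ± 0.25), the Integrator subunit gene Ints6 (-0.67 ± 0.127) and the carboxylesterase gene Ces2g. Ces2g was the most even of them, at 84.9, 105, 107 and 104 CPM in GOF, against 148, 142, 164 and 154 CPM in controls (-0.61 ± 0.115; adjusted p = 0.169), with no overlap. The counts may share reads between near-identical relatives, which makes Serpinb1a, Abcb1a, Ces2g and other members of gene families less certain.

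**Figure D2:**
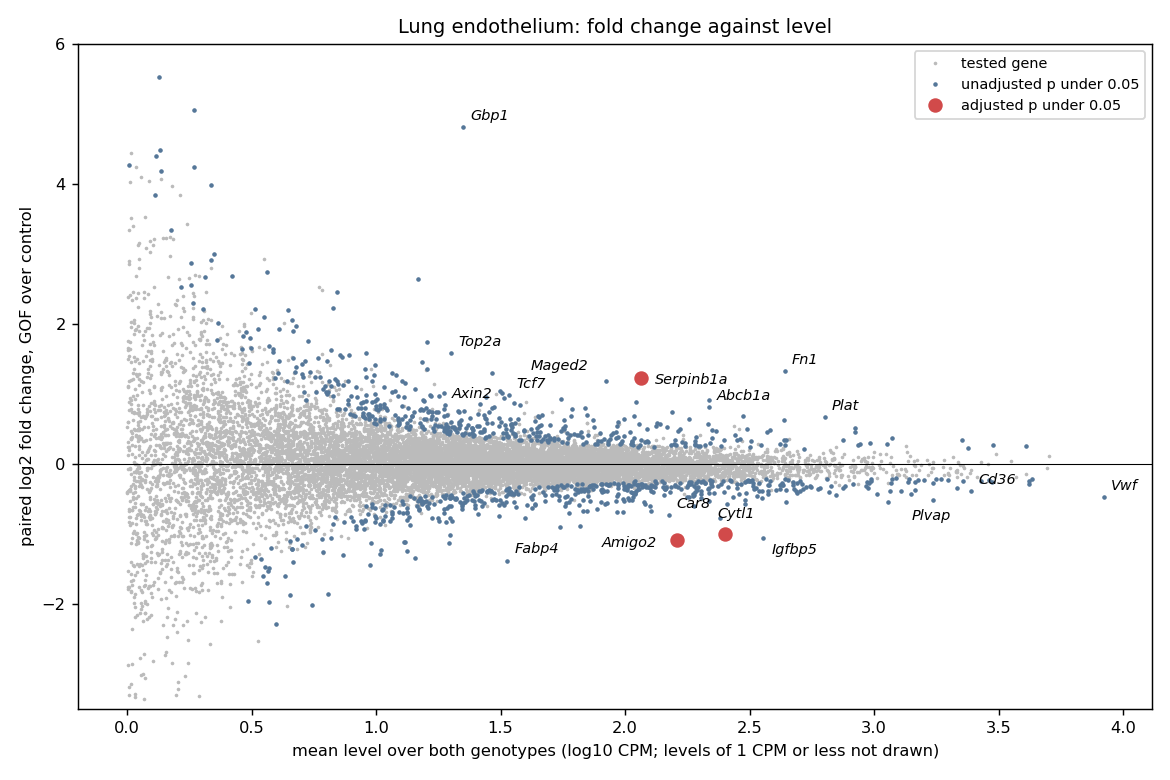
Paired log2 fold change (GOF over control) of each tested gene with a mean above 1 CPM, against its mean level on a log10 axis; darker points have an unadjusted p under 0.05 and large points an adjusted p under 0.05. Of the 3 called genes Serpinb1a lies at 1.22, Amigo2 at -1.09 and Cytl1 at -1.004, and Gbp1 stands apart at 4.81.

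No listed Wnt target passed the test. Of 18 listed Wnt target and feedback genes 17 were tested, and 0 passed. Of the 17, 4 had an unadjusted p under 0.05 with GOF higher and 1 with GOF lower, where 2.91% and 3.19% of all genes did. GOF was higher in 4 of 4 pairs for 3 members (7.14% of all genes) and lower for 1 (7.44% of all genes). The list's median log2 fold change was 0.18, beside 0.000 for all genes, and its pair medians were 0.69, 0.16, 0.09 and 0.16 in pairs B, D, E and F. Without pair B 2 members had an unadjusted p under 0.05 with GOF higher, where 1.89% of all genes did, and 1 with GOF lower (2.38% of all genes).

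Tcf7, the gene of a TCF protein and itself a target, had 44.7, 47.2, 35.6 and 52.6 CPM in GOF, against 15.5, 29.1, 21.8 and 26.2 CPM in controls (log2 fold change 0.98 ± 0.179; adjusted p = 0.163). Axin2, the feedback inhibitor, had 30.2, 20.5, 18.7 and 27.2 CPM in GOF, against 17, 16.97, 9.42 and 11.2 CPM in controls (0.84 ± 0.214; adjusted p = 0.362). Neither gene's groups overlapped, which held with GOF higher for 1.23% of all genes. Znrf3, a ligase that removes Frizzled receptors, had a log2 fold change of 0.80 ± 0.308, again without overlap, although its difference rested largely on control E at 4.29 CPM beside 14.4 to 15.5 CPM in the other controls. Apcdd1, a membrane-bound Wnt inhibitor, was at 30.8, 34.0, 26.2 and 14.8 CPM in GOF, against 10.1, 11.3, 31.4 and 14.2 CPM in controls. It was thus higher in GOF in pairs B and D and near or below control in E and F. Sp5, a transcription factor that Wnt signals induce, was at 7.63, 8.59, 5.12 and 1.30 CPM in GOF, against 2.63, 2.35, 4.17 and 1.40 CPM in controls (0.91 ± 0.531). Nkd2, another feedback inhibitor, lay the opposite way, at 16.1, 31.5, 26.8 and 30.4 CPM in GOF, against 31.4, 54.0, 37.5 and 33.8 CPM in controls (-0.59 ± 0.175; adjusted p = 0.522). Listed targets not named here enter the counts only, among them key genes with log2 fold changes of 0.09 and 0.11.

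Receptors and transducers of the pathway differed little. Of 31 tested members 0 passed, 1 had an unadjusted p under 0.05 (Lrp5, with GOF lower, where 3.19% of all genes did), and the median was -0.07. Leaving out 1 pair gave between 0 (without B, 2.38% of all genes) and 4 (without E, 5.05% of all genes) with GOF lower. Lrp5, a co-receptor, had a log2 fold change of -0.28 ± 0.109, Fzd4, the Frizzled receptor of vessels, -0.23 ± 0.131, and Tcf7l1, a mostly repressive partner of beta-catenin, -0.26 ± 0.165.

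Of the 47 gene lists examined, that of venous endothelium had the most members with an unadjusted p under 0.05 and GOF lower. The lists were chosen with earlier results of these data known, so the counts for this and the other lists are descriptions and not tests. The venous members Amigo2, Car8 and Vwf are also among the leading genes given above. Of 18 tested members 1 passed, Amigo2. With GOF lower, 10 members had an unadjusted p under 0.05 (3.19% of all genes), and 0 with GOF higher. In 4 of 4 pairs GOF was lower for 9 (7.44% of all genes). The median was -0.35 beside 0.000 for all genes, and every pair's median was negative, at -0.31, -0.19, -0.37 and -0.55. Without pair B the count of 10 was again 10 (2.38% of all genes). Paired DESeq2 called 7 members lower and limma voom 6 (0.46% and 0.185% of all genes).

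The members with GOF lower were of several kinds. Slc6a2, the noradrenaline transporter by which lung endothelium clears this amine from blood, had 649, 995, 983 and 1045 CPM in GOF, against 1178, 1127, 1908 and 1179 CPM in controls (-0.54 ± 0.138; adjusted p = 0.362). Its groups did not overlap, as was so with GOF lower for 0.818% of all genes. Ptgs1, a cyclooxygenase of prostaglandin synthesis, was at 113, 86.5, 130 and 60.2 CPM in GOF, against 156, 116, 181 and 117 CPM in controls (-0.58 ± 0.127; adjusted p = 0.249). Here the pairs lay the same way and the groups overlapped. Vcam1, an adhesion molecule for leukocytes, had a log2 fold change of -0.38 ± 0.0998, Bst1 (CD157) -0.39 ± 0.118, the protease Prss23 -0.33 ± 0.116, and Lyve1, a hyaluronan receptor shared with lymphatics, -0.23 ± 0.09. Nr2f2, the transcription factor that specifies venous identity, stood at 67.0, 30.7, 47.9 and 35.4 CPM in GOF, against 63.9, 36.1, 55.7 and 41.6 CPM in controls (-0.15 ± 0.139), and Darc, a chemokine-binding receptor of venules, at 234, 43.6, 25.5 and 11.04 CPM in GOF, against 114, 36.8, 17.1 and 17.03 CPM in controls (0.33 ± 0.219). In bulk RNA of this kind, fewer venous cells and less RNA of these genes per cell cannot be told apart. Platelets also hold Vwf, and 10 platelet markers summed to 46.2, 92.8, 725 and 69.0 CPM in GOF, against 57.2, 141, 1082 and 54.8 CPM in controls, lower in GOF in 3 of 4 pairs. Their part in the Vwf difference was not tested.

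**Figure D3:**
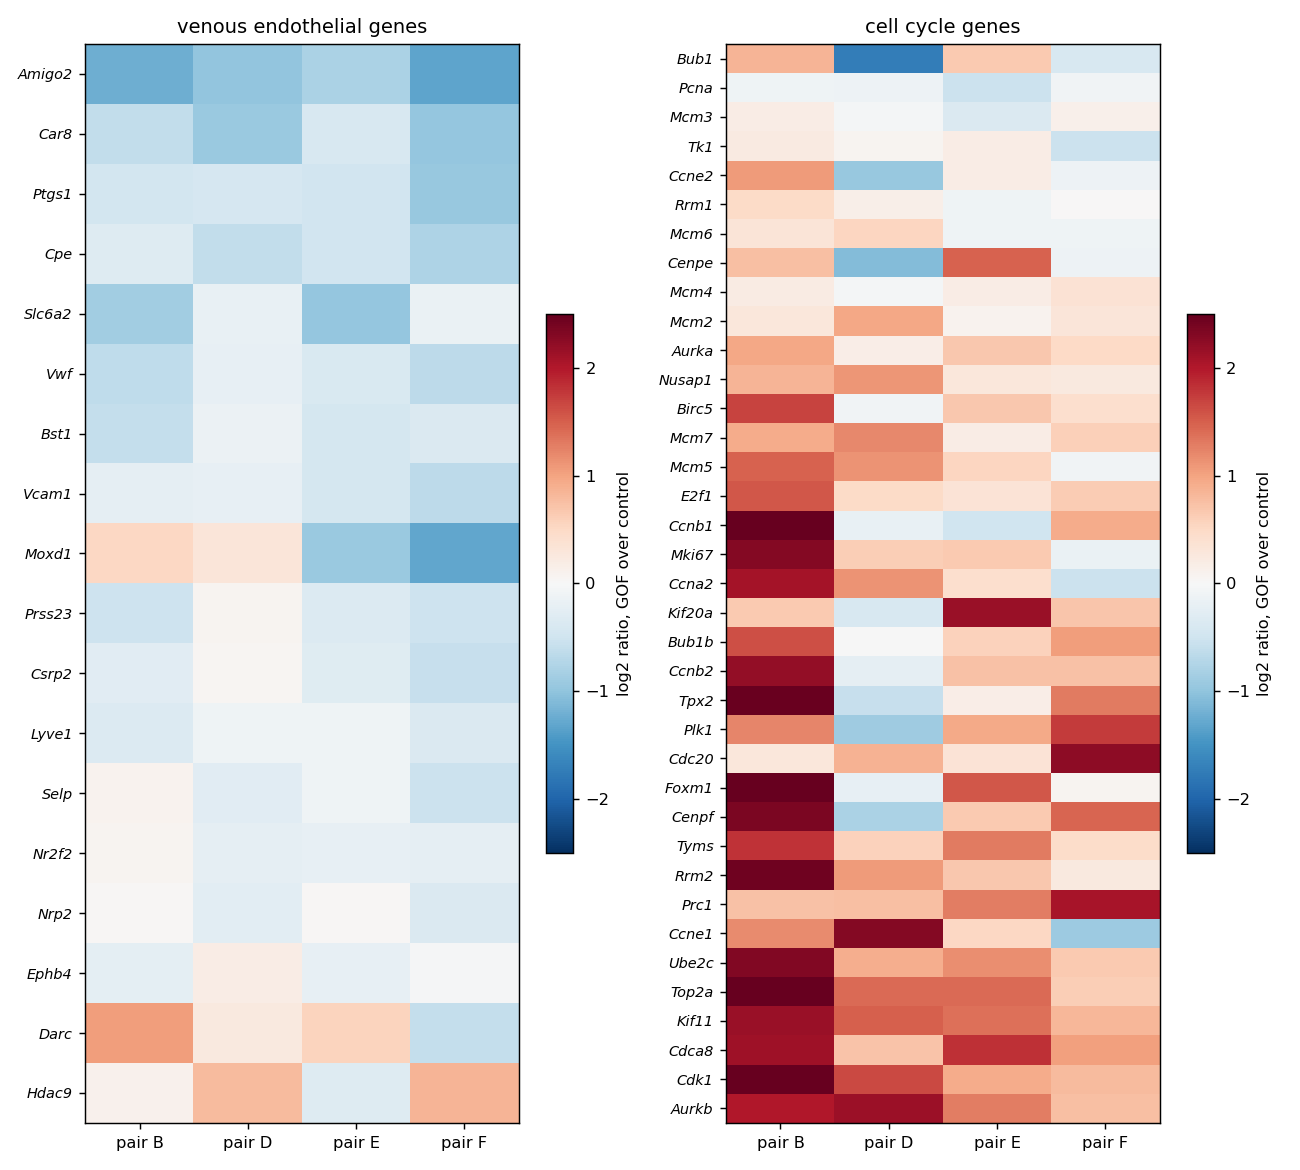
Log2 ratio of GOF over control in each of the 4 same-letter pairs (columns) for the tested members of the venous list (left, 18 genes) and of the cell cycle list (right, 37 genes), ordered by paired log2 fold change; red is higher and blue lower in GOF, and the colour scale ends at 2.5. Of the venous genes 9 are blue in all 4 pairs, and the cell cycle list has its highest median in pair B (1.47), although single members such as Prc1 are highest in another pair.

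Other vessel classes held members in both directions, more of them with GOF lower. Of 24 arterial genes 6 had a positive and 18 a negative log2 fold change. In 4 of 4 pairs 3 were higher and 6 lower in GOF (7.14% and 7.44% of all genes). Among 24 arterial genes 3 had an unadjusted p under 0.05 with GOF higher and 4 with GOF lower (2.91% and 3.19% of all genes). Without pair B 1 had GOF higher (1.89% of all genes). Sox17, an arterial transcription factor, was at 191, 97.1, 105 and 69.5 CPM in GOF, against 80.1, 71.4, 76.7 and 57.8 CPM in controls (0.60 ± 0.16; adjusted p = 0.422), with GOF B highest, and Mgp, an inhibitor of BMP signals and calcification, lay the same way (0.34 ± 0.115). Gja5, the arterial connexin 40 (-0.54 ± 0.166), and Fbln5, an elastic fibre protein (-0.35 ± 0.102), lay lower in GOF in 4 of 4 pairs, and Efnb2, the arterial ephrin, was at -0.11 ± 0.1.

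No capillary marker passed the test. General capillary genes had 2 of 14 members with an unadjusted p under 0.05 and GOF higher, the apelin receptor Aplnr (0.56 ± 0.159) and the stem cell factor receptor Kit (0.37 ± 0.136), and 2 with GOF lower, Plvap and the angiopoietin receptor Tek (-0.32 ± 0.0964), where 2.91% and 3.19% of all genes did. Without pair B 1 had GOF higher (1.89% of all genes), and without pair E 3 had GOF lower (5.05% of all genes). Plvap, which forms the diaphragms of fenestrae and caveolae and is suppressed where Wnt signals build the brain barrier, was at 895, 1869, 1444 and 1525 CPM in GOF, against 1558, 1977, 2525 and 1977 CPM in controls (-0.52 ± 0.121; adjusted p = 0.318). It was lower in GOF in every pair, by least in D. Of 15 aerocyte genes 1 had an unadjusted p under 0.05 with GOF lower (3.19% of all genes), Fibin (-0.45 ± 0.135), and 0 with GOF higher. Without pair B or D 1 had GOF higher (1.89% and 2.84% of all genes). The carbonic anhydrase Car4 had 518, 1002, 532 and 1256 CPM in GOF, against 687, 827, 606 and 1109 CPM in controls (-0.04 ± 0.12, with a changing sign over the alternatives), and the endothelin receptor Ednrb stood at -0.17 ± 0.0978 and the apelin gene Apln at 0.23 ± 0.134. Across 22 pan-endothelial genes, 6 had a positive and 16 a negative log2 fold change. In 4 of 4 pairs 0 were higher and 5 lower in GOF (7.14% and 7.44% of all genes). Of the 22, 0 passed and 4 had an unadjusted p under 0.05, all with GOF lower (3.19% of all genes). Without pair E 2 had GOF lower (5.05% of all genes). Among the 4 were Pecam1, which encodes CD31 and was used in the sort (-0.24 ± 0.0859), and the VEGF receptor Flt1 (-0.29 ± 0.104). Cdh5 was at 0.02 ± 0.0776 and the transcription factor Erg at -0.16 ± 0.109.

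Barrier genes of brain endothelium, known to respond to Wnt signals there, showed no shared direction. Of 30 tested members 0 passed, the median was -0.03, and 5 had an unadjusted p under 0.05 with GOF higher and 0 with GOF lower (2.91% and 3.19% of all genes). Without pair D the 5 became 3 and without pair F 2, beside 2.84% and 2.77% of all genes. Besides Abcb1a these included the transporter Slco1a4, at 2.59, 7.45, 6.02 and 5.38 CPM in GOF, against 0.88, 2.45, 3.43 and 0.10 CPM in controls (2.10 ± 0.782), and Lsr, a receptor of tricellular junctions (0.71 ± 0.268). Cldn5, the main tight junction claudin, had 1953, 3290, 1866 and 3304 CPM in GOF, against 1820, 2217, 1907 and 2726 CPM in controls (0.23 ± 0.102), higher in GOF in 3 of 4 pairs. Slc2a1, the glucose transporter of the brain barrier, was at 62.2, 36.2, 59.9 and 32.3 CPM in GOF, against 49.3, 38.1, 48.0 and 32.6 CPM in controls (0.14 ± 0.147), and its groups overlapped almost wholly. Slco1a4 was thus detected in GOF at a few CPM, far below the level of Abcb1a.

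Genes of the cell cycle stood higher in GOF as a group, most of all in pair B. Of 37 tested members 0 passed, 15 had an unadjusted p under 0.05 with GOF higher and 0 with GOF lower (2.91% and 3.19% of all genes), and 7 had groups that did not overlap (1.23% of all genes). GOF was higher in 4 of 4 pairs for 15 members (7.14% of all genes). The median log2 fold change was 0.87 beside 0.000 for all genes, with pair medians of 1.47, 0.49, 0.66 and 0.46. Without pair B the median was 0.51 and 9 members had an unadjusted p under 0.05 with GOF higher (1.89% of all genes).

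Top2a, the DNA topoisomerase of dividing cells, had 43.2, 19.3, 35.9 and 21.2 CPM in GOF, against 6.23, 6.87, 13.1 and 13.7 CPM in controls (1.58 ± 0.299; adjusted p = 0.169), with every GOF library above every control. Prc1, which organises the central spindle, had 9.97, 9.34, 19.4 and 17.1 CPM in GOF, against 5.83, 5.31, 7.66 and 3.73 CPM in controls (1.28 ± 0.309), and Mcm7, a subunit of the replicative helicase, 19.7, 22.3, 19.6 and 19.1 CPM in GOF, against 10.1, 9.49, 17.2 and 12.4 CPM in controls (0.75 ± 0.229). Both were without overlap. The mitotic kinesin Kif11 (1.62 ± 0.37) and the kinases Cdk1 (1.75 ± 0.479) and Aurkb (1.92 ± 0.595) were higher in 4 of 4 pairs, and the proliferation marker Mki67 (0.85 ± 0.321) in 3. Levels were low, at most 57.0 CPM for Mki67 in GOF B. Cdkn1a, the cell cycle inhibitor p21, stood at -0.25 ± 0.0897, lower in GOF in 4 of 4 pairs. Leukocytes, some of which also divide, had marker lists that differed in this. Macrophage markers and neutrophil and monocyte markers had their highest median in pair B. B cell markers had medians of 0.389, -0.045, 0.937 and 0.803 in pairs B, D, E and F. Those of dendritic cell markers were 0.331, 0.585, 0.207 and 0.000. The medians of 10 tested macrophage markers were 2.19, -0.243, 0.231 and 0.289 in pairs B, D, E and F. Those of 14 neutrophil and monocyte markers were 1.71, -0.195, 1.17 and -0.017. The macrophage sum was 271, 231, 199.5 and 282 CPM in GOF, against 188, 260, 204 and 259 CPM in controls. The neutrophil and monocyte sum was 2089, 2042, 707 and 1384 CPM in GOF, against 963, 2260, 652 and 1339 CPM in controls, and the T and NK cell sum lay between 7.51 and 22.0 CPM in GOF and between 7.50 and 16.8 CPM in controls. Of the 15 neutrophil and monocyte markers 0 were at 0 in all 8 libraries. The part of these cells in the cell cycle difference was not tested.

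Interferon response genes followed pair B more closely still. Of 26 members 0 passed. An unadjusted p under 0.05 was held by 8 with GOF higher and 0 with GOF lower (2.91% and 3.19% of all genes). The median of 0.54 became 0.15 without pair B. Then 2 members had an unadjusted p under 0.05 with GOF higher and 1 with GOF lower (1.89% and 2.38% of all genes). Without pair F, the pair with the lowest median, 17 had GOF higher (2.77% of all genes). The pair medians were 1.64, 0.30, 0.35 and -0.16. Isg15, a ubiquitin-like modifier, was at 115, 41.8, 53.7 and 37.6 CPM in GOF, against 36.9, 33.6, 41.8 and 39.4 CPM in controls, high in GOF B and near control elsewhere. Usp18, which removes that modifier, had a log2 fold change of 0.74 ± 0.215 and Oas1a, an antiviral synthetase, one of 1.36 ± 0.47. The antiviral GTPase Mx1 stood at 25.5 CPM in GOF B and at most 0.747 CPM in the other GOF libraries, against at most 0.745 CPM in controls.

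The leukocyte adhesion genes Vcam1, Sele and Icam1 lay lower in GOF, while several cytokine genes lay higher. Of 21 tested members 4 had an unadjusted p under 0.05 in each direction (2.91% of all genes higher and 3.19% lower). Without pair B, however, 1 had GOF higher and 7 GOF lower (1.89% and 2.38% of all genes). Sele (E-selectin) was at 404, 128, 572 and 117 CPM in GOF, against 493, 230, 709 and 169 CPM in controls (-0.49 ± 0.116; adjusted p = 0.337), lower in every pair although levels varied more between letters than between genotypes. Icam1 was also lower in 4 of 4 pairs (-0.23 ± 0.0822). Il1b, the cytokine interleukin 1 beta, was at 44.5, 24.7, 17.6 and 12.1 CPM in GOF, against 0.80, 11.7, 8.35 and 8.50 CPM in controls (1.74 ± 0.644; adjusted p = 0.762), without overlap. It is made chiefly by myeloid cells, and their part in this difference was not tested. H2-K1, a class I antigen-presenting molecule, was the 1 of 17 antigen presentation genes with an unadjusted p under 0.05 (-0.39 ± 0.0872), with GOF lower as for 3.19% of all genes. Without pair B, D or E there were 2, 3 and 4 such genes, beside 2.38%, 2.17% and 5.05% of all genes.

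Genes of matrix, clotting, vessel tone and fat handling each held a few members that stood apart. In the basement membrane list 4 of 24 had an unadjusted p under 0.05 with GOF higher, including Fn1 and the collagen IV chain Col4a2 (0.28 ± 0.109), and 1 with GOF lower (2.91% and 3.19% of all genes). The 4 became 2 without pair B or E and 6 without F, beside 1.89%, 3.66% and 2.77% of all genes. The 1 became 3 without E, beside 5.05% of all genes. The fibrillar collagens Col1a1 (0.65 ± 0.175), which is among the fibroblast markers summed above, and Col1a2 (0.68 ± 0.146) lay the same way. Col1a2 had 514, 318, 331 and 311 CPM in GOF, against 241, 264, 165 and 240 CPM in controls, without overlap. The part of fibroblast RNA in these collagen differences was not tested. In the coagulation list of 23 genes, 9 had a positive and 14 a negative log2 fold change; 1 had an unadjusted p under 0.05 with GOF higher, Plat, and 4 with GOF lower (2.91% and 3.19% of all genes; 6 lower without pair D), among them Vwf and F8 (coagulation factor VIII, -0.71 ± 0.28). Ece1, the enzyme that activates endothelin, had 998, 1357, 1282 and 1143 CPM in GOF, against 1547, 1653, 1730 and 1495 CPM in controls (-0.43 ± 0.0913; adjusted p = 0.233), and no GOF library reached the controls. Cd36, a fatty acid transporter of capillaries, had 1696, 2076, 1885 and 2830 CPM in GOF, against 2309, 2707, 2550 and 3484 CPM in controls (-0.39 ± 0.08; adjusted p = 0.214), lower in every pair. Of 17 Notch genes and 26 oxidative phosphorylation genes, 0 had an unadjusted p under 0.05 with all pairs. With GOF higher, 2 Notch genes did without pair B (1.89% of all genes). So did 3 oxidative phosphorylation genes without pair E (3.66% of all genes).

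**Figure D4:**
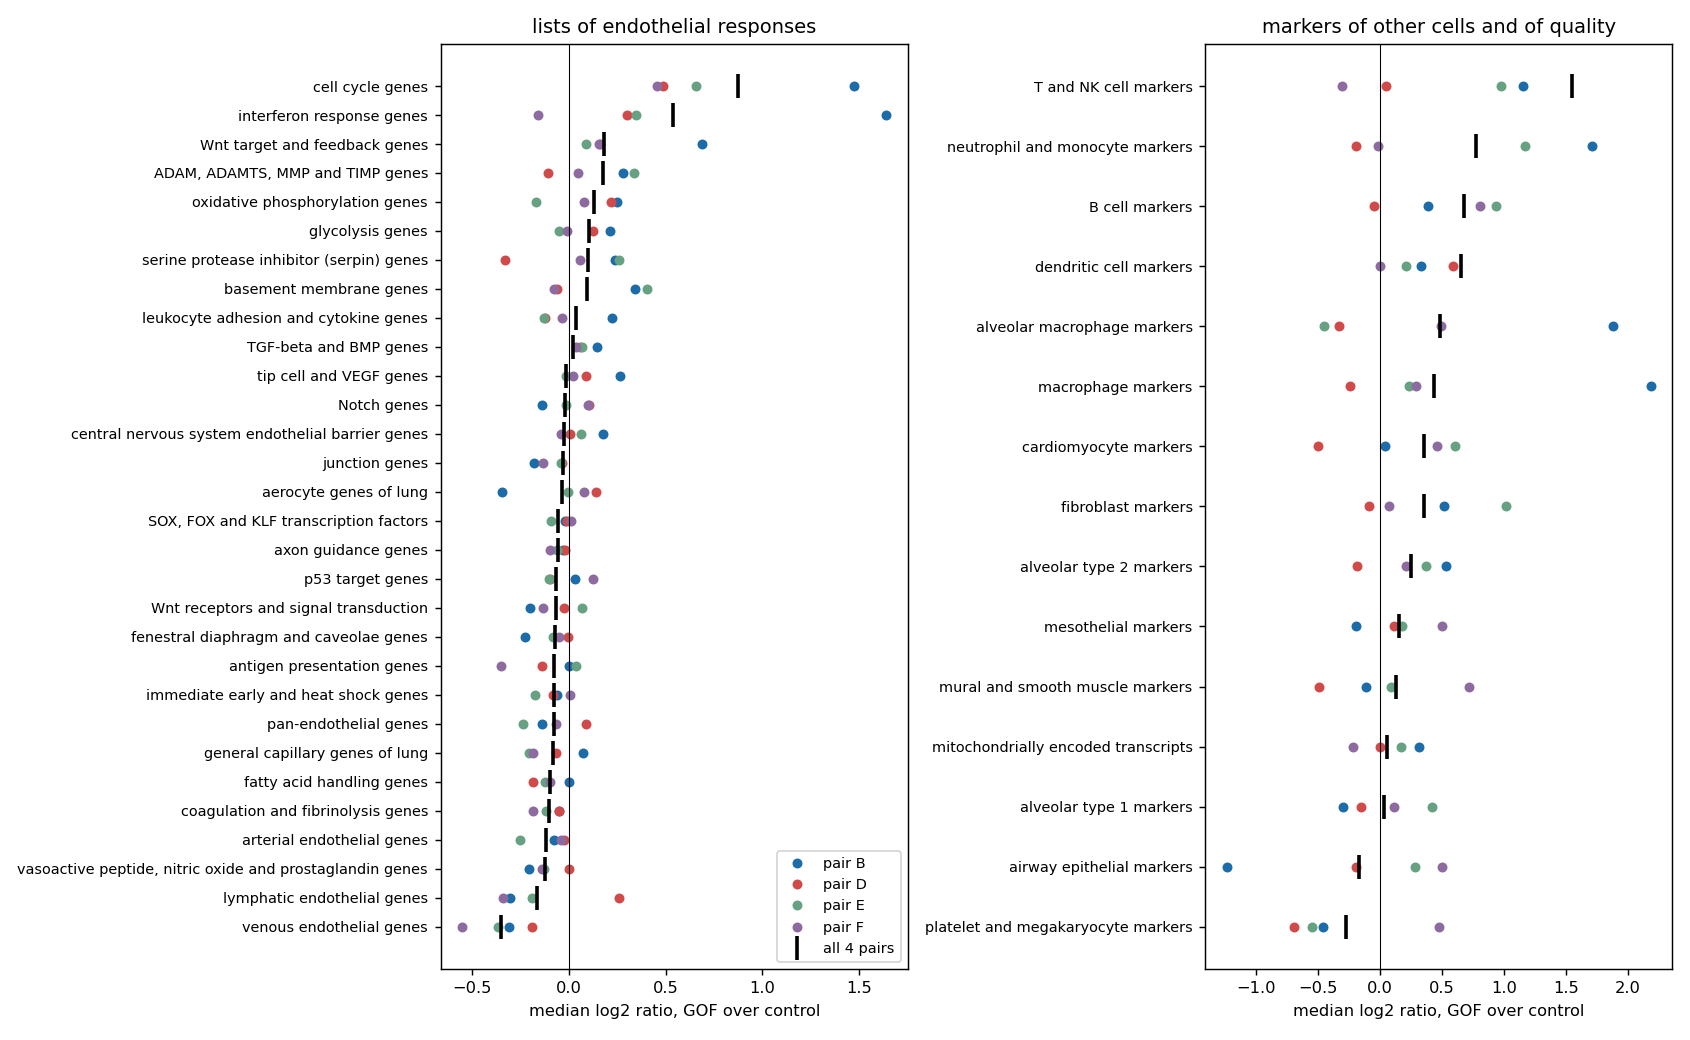
Median log2 ratio of GOF over control for gene lists with at least 7 tested members, in each pair (coloured points, pseudocount 0.5 CPM) and in the paired fit over all pairs (black bars); left, lists of endothelial genes and functions, right, markers of other cells and mitochondrially encoded transcripts. Venous genes lie at -0.19 or lower in every pair, cell cycle genes at 0.46 or higher, and pair B lies far to the right for interferon and macrophage lists; bars can pass the points where counts are low, since the pseudocount draws the points to 0.

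Some scarce transcripts had reads in a single genotype alone. They could enter the test only through that genotype. The share of all genes with such a pattern was not counted. Cdkn3, a phosphatase of the cell cycle, had 318 reads over the GOF libraries and 0 over the controls, at least 103-fold higher in GOF taking 3 reads summed over the controls as the floor. Stra6, the receptor for retinol-binding protein, had 244 reads in GOF and 0 in controls, at least 79.1-fold higher. Arhgef33 had 0 reads in GOF and 110 in controls, at least 37.7-fold lower. These floors cover counting error only. The collagen gene Col28a1 had 136 reads in GOF and 1 in controls, and Tnfrsf13c, the BAFF receptor of B cells, 220 reads in GOF and 6 in controls. These genes, with Maged2, Gbp1, Top2a, Amigo2 and Ces2g, were called by DESeq2 without pairing. The scarce genes are named because of that call on these same counts, so it adds no support. In the authors' deposited table Cdkn3 (log2 fold change 0.53, adjusted p = 0.2414) and Stra6 (0.41, adjusted p = 0.8614) did not pass. In the paired edgeR test none but Amigo2 passed. Gbp1, an interferon-induced GTPase, was at 0.87, 43.3, 95.1 and 34.9 CPM in GOF, against 1.40, 0.65, 2.21 and 0.27 CPM in controls (4.81 ± 0.971; adjusted p = 0.204). GOF D, E and F were far above all controls and GOF B was not, and with pair B left out the gene passed (adjusted p = 5.47e-07).

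Where lung differed from liver was tested over all 16 libraries as the lung effect minus the liver effect, with a block for each pair. The liver pairs were taken from the letters alone and were not checked. Of 17536 genes 86 passed (0.49%), 27 with a more positive effect in lung (0.154%) and 59 with a more negative one (0.336%). Without the pair blocks nearly all of these calls were lost, and leaving out a lung pair changed their number, as given in the closing section. In the same fit the liver comparison called 0.89% of genes higher and 0.57% lower in GOF. The fit treats the 8 pairs as independent, although libraries of letters B, E and F exist in both tissues and may share mice. Several genes had the smaller effect in lung. Tcf7 had a log2 fold change of 0.98 in lung and 3.25 in liver, a difference of -2.27 ± 0.313 (SE; adjusted p = 0.00747). Abcb1a stood at 0.80 in lung and 2.13 in liver (-1.33 ± 0.255; adjusted p = 0.0395), Plat at 0.66 and 1.51 (-0.85 ± 0.141; 0.02) and Apln at 0.23 and 1.41 (-1.18 ± 0.182; 0.0142), lung given first. Axin2 stood at 0.84 in lung and 2.03 in liver, a difference that did not pass (-1.19 ± 0.278; adjusted p = 0.0913). Of 18 Wnt targets tested in this fit, the median was 0.21 in lung and 0.80 in liver, and the difference was called with the lung effect lower for 2.

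Adhesion genes had estimates of opposite sign in lung and liver. Vcam1 stood at -0.39 in lung and 0.63 in liver (difference -1.02 ± 0.125; adjusted p = 0.00391), Sele at -0.49 in lung and 0.83 in liver (-1.33 ± 0.193; adjusted p = 0.00907) and Vwf at -0.48 in lung and 0.30 in liver (-0.78 ± 0.13; adjusted p = 0.0207). Ints6 lay the same way, at -0.68 in lung and 0.20 in liver (-0.88 ± 0.168; adjusted p = 0.0372). Serpinb1a was the reverse, at 1.22 in lung and -0.85 in liver (2.06 ± 0.342; adjusted p = 0.02), as was Col6a2, at 0.88 in lung and -0.97 in liver (1.85 ± 0.325; adjusted p = 0.0274). For these genes it was the difference that was called. In the liver comparison of this fit Vcam1 (adjusted p = 0.00276) and Sele (0.00748) passed. Vwf (0.167), Ints6 (0.574), Serpinb1a (0.152) and Col6a2 (0.0661) did not pass there. In the paired lung test only Serpinb1a of them passed. For other leading genes the difference did not pass, which does not show equal effects: Amigo2 was at -1.09 in lung and -0.70 in liver (-0.39 ± 0.178), Cytl1 at -1.01 and -0.97 (-0.04 ± 0.426), Car8 at -0.74 and -0.69 (-0.05 ± 0.156), Plvap at -0.52 and -0.67 (0.15 ± 0.162), Cpe at -0.56 and -0.59 (0.04 ± 0.141) and Maged2 at 1.18 and 0.95 (0.23 ± 0.256), lung first in each. Among the 18 venous genes the liver comparison called 2 higher and 7 lower, and the difference between tissues was called for 3, Vwf, Vcam1 and Selp, each with the lung effect lower. Selp, which encodes P-selectin, stood at -0.21 in lung and 0.56 in liver (-0.78 ± 0.155; adjusted p = 0.0471).

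**Figure D5:**
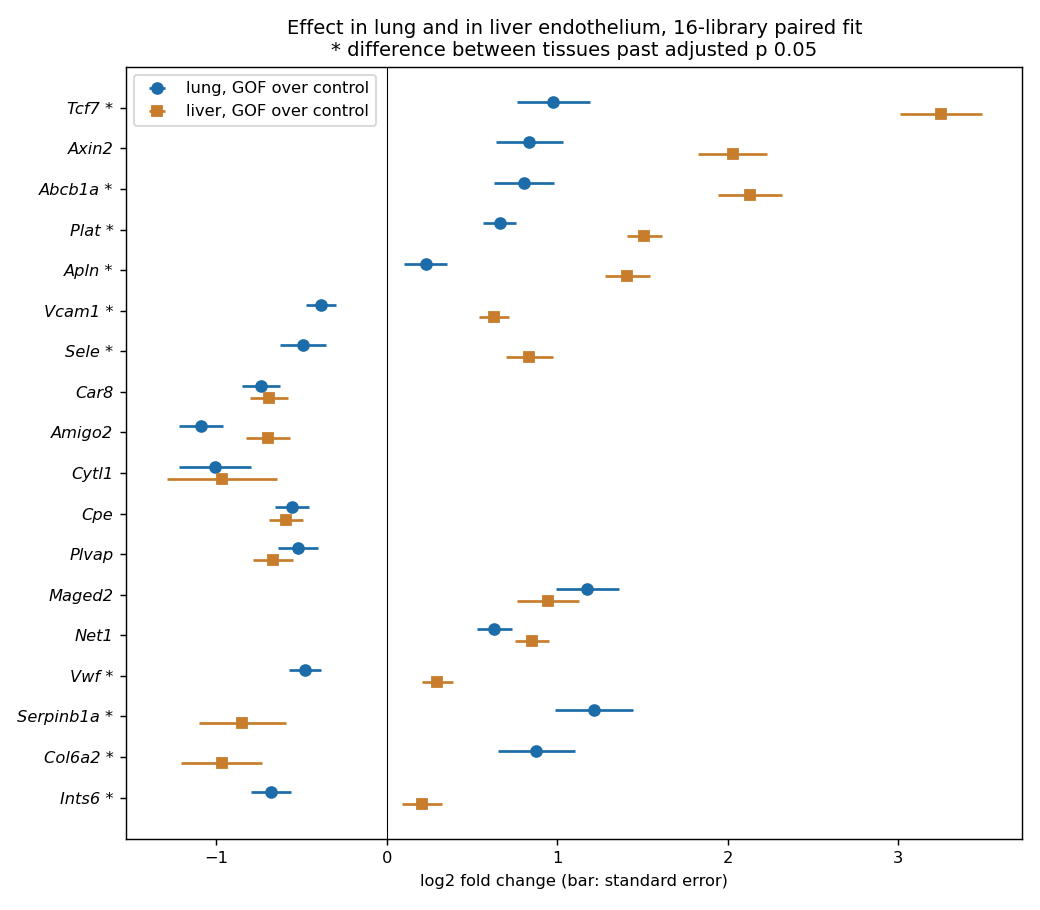
Log2 fold change of GOF over control (standard error as bars) for 18 genes in lung (circles) and liver (squares), from 1 paired fit over 16 libraries; an asterisk marks a difference between tissues past an adjusted p of 0.05. Tcf7 lies at 0.98 in lung and 3.25 in liver, and Vcam1, Sele, Vwf, Serpinb1a, Col6a2 and Ints6 lie on opposite sides of 0.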

How the data were processed

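Endothelial RNA of 4 lung GOF and 4 lung control libraries was analysed, with 8 liver libraries for the tissue difference. TruSeq libraries of 2 ng input were read as 100 bp pairs, per the labels. For upstream steps the processing notes of the submitters list HTSeq 0.6.1, SAMtools 0.1.19, TopHat2 2.0.11, Bowtie2 2.2.1, DESeq2 and mm9. Neither annotation nor strand setting is given there, so reads of antisense or overlapping genes cannot be told apart. The authors deposited raw counts per gene, per the file headers. Their deposited comparison table also holds a signal (mean normalised count), log2 fold changes, a Wald score, and the p-value with its adjusted form; these are printed only where that table is named. The deposited CPM columns (16) stayed out.

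Of 37991 gene entries, 3750 share a symbol with another and were kept apart by a running number in order of entry. The line of column sums was left out. edgeR 4.0.16 (R 4.3.3) was run after filterByExpr (at least 10 counts, total of at least 15), with TMM scaling, a prior count of 0.125, the letter as an additive block and the quasi-likelihood test, with Benjamini-Hochberg adjustment over all genes at 0.05. The pairing of the lung libraries was taken from the data. Libraries of 1 letter deviated together from their group means, with correlations of 0.203, 0.19, 0.31 and 0.314 (B, D, E, F). Other combinations lay at -0.207 to 0.044. Both libraries of each lung pair had the same sex by Xist and genes of the Y. The liver libraries were paired by their letters and were not checked in this way. The labels describe 4 biological samples per condition, and every pair of libraries within a group differed by more than sampling noise. limma 3.58.1 and DESeq2 1.42.0 served as alternatives; adjusted p-values that DESeq2 gave as missing were left missing. Levels are counts scaled by TMM library size (CPM), and pair ratios use a pseudocount of 0.5. The quasi-likelihood test gives no standard error. Each SE was derived as the size of the log2 fold change divided by the square root of its F statistic.

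The members, the 47 gene lists and the naming rule were chosen with earlier results of these data known. The rule took Ctnnb1, the called genes, the 12 genes with the smallest p in each direction among those that lay the same way in 4 of 4 pairs and averaged 50 reads or more, key members of each list, and genes called by DESeq2 without pairing or in the deposited table. Of its 126 genes 65 are described. The 61 others enter the counts only, a choice made after their values were seen. In the paired lung test none of the 61 was called and 5 had an unadjusted p under 0.05. Some of the 61 passed in the test of the lung effect minus the liver effect. A further 25 genes outside the rule were named after their values were seen. On simulated counts for this comparison (15641 genes), the paired fit recovered 10.4%, 64.2% and 77.3% of genes changed by log2 0.5, 1 and 2. It made 13 false calls of 114, a larger share than the threshold of 0.05. Without the block the shares were 0%, 10.4% and 51.5%, with 0 false calls of 41. Only genes averaging more than 50 reads were changed, with a spread set by level and not by gene. Recovery of scarcer genes was not measured.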

Additional observations from a re-analysis of the deposited data

Results flagged for a closer look

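Among 214 sets of 4 libraries examined (the named genes and the marker sums of other cells, by genotype), 19 held a library far from the other 3 by Dixon's criterion for 4 values; chance flags about 1 set in 20. In GOF the distant library was B for Fn1 (1275 CPM), Tnc (138.9), Ces2g (84.92), Slc6a2 (648.6), Darc (234.0), Mx1 (25.48), Col1a2 (514.1) and the sum of fibroblast markers (5287), and E for the sum of platelet and megakaryocyte markers (725.2). Among controls it was E for Igfbp4 (927.2), Fabp4 (76.87), Fbln2 (429.7), Znrf3 (4.292), Slc6a2 (1908), Aurkb (3.428) and the platelet and megakaryocyte sum (1082), B for Tnc (41.03), D for the mesothelial sum (450.8) and F for Col28a1 (0.03333).

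The lung effect differed from the liver effect, with an adjusted p under 0.05 in the 16-library edgeR fit, for 11 of the genes described here. Genes of the naming rule that are not described also passed, with differences of -1.25 (adjusted p = 0.00391) and -0.696 (adjusted p = 0.0403). The lung effect was more positive for Serpinb1a (2.064 on the log2 scale) and Col6a2 (1.846). It was more negative for Plat (-0.85), Abcb1a (-1.326), Tcf7 (-2.273), Vwf (-0.7757), Ints6 (-0.8847), Vcam1 (-1.016), Apln (-1.181), Sele (-1.328) and Selp (-0.7777).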

How the results depend on the processing

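The pairing and the test set the number of lung calls, 1 higher and 2 lower in the paired fit. With no replicate block the counts were 0 and 0, and DESeq2 with no replicate block gave 7 and 4. DESeq2 in pairs gave 45 and 72, limma voom 28 and 29, no filter on low counts 41 and 43, and the fit over all 16 libraries 0 and 1. With GOF higher, upper quartile scaling gave 4, robust dispersion 5 and quantile normalisation 6. Leaving out 1 pair gave 0 to 2 higher and 0 to 3 lower. For the lung minus liver difference (27 higher, 59 lower), the fit without pairing gave 0 and 1 and limma voom gave 103 lower; leaving out 1 lung pair gave 23 to 41 higher and 30 to 143 lower. The causes were not tested.

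Of 1345 values for 90 named genes under 15 alternatives, 1205 kept direction and side of the threshold, 121 newly passed, 12 lost a call (all of Serpinb1a, Amigo2 or Cytl1) and 7 turned sign. Those were Ctnnb1 with quantile normalisation (0.0353) and over the fits leaving out a pair (-0.09136 to 0.04836, positive without D), and Car4 with no replicate block (0.03406), with quantile normalisation (0.032), with DESeq2 and no replicate block (0.02314) and over the fits leaving out a pair (-0.1401 to 0.0808, positive without B or E). Of the 61 genes of the rule not named, 25 turned sign under some alternative, with log2 fold changes of up to 0.821 in size. With 4 pairs, changes of 0.5 on the log2 scale were mostly missed in simulated counts.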
